A study of Mus musculus with 4 samples.

Results

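The genes of glycolysis and pyruvate metabolism were followed in single cells of the mouse testis sorted on an Eomes-driven tdTOMATO reporter. The list held 33 genes of the 26041 gene symbols in the count tables, and all 33 were rows of both tables. It ran from the glucose transporters through the enzyme steps of glycolysis to lactate dehydrogenase, the pyruvate dehydrogenase complex and its kinases, and the monocarboxylate transporters that carry lactate and pyruvate. At 3 steps a form used in most tissues was set against a form known from germ cells: Pgk1 against Pgk2, Gapdh against Gapdhs, and Ldha against Ldhc.

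Cells carrying the tdTOMATO reporter were sorted one per well from testes of mice 4 weeks old. All animals carried a tdTomato reporter together with inducible Cre knocked into the Eomes locus, so Eomes-driven reporter signal decided which cells entered every library. Wild-type animals were Plzf +/+ and mutants were Plzf lu/lu, homozygous for luxoid, a loss-of-function allele of the gene that the tables list as Zbtb16. Plzf +/+ cells came from plates 1, 2 and 4 (317, 303 and 277 cells) and Plzf lu/lu cells from plates 3 and 4 (314 and 38 cells). Below, values for Plzf +/+ are given in the order of plates 1, 2 and 4 and those for Plzf lu/lu in the order of plates 3 and 4. The genotype of a plate 4 cell was taken from the count table that lists it. Against the label's wells for each genotype, all 38 Plzf lu/lu cells and 272 of the 277 Plzf +/+ cells of that plate lay where the label puts them, and 5 Plzf +/+ cells (0.669% of that library's UMIs) lay in wells it gives to Plzf lu/lu. Plates 1 to 3 held 1 genotype each, so outside plate 4 the plate and the genotype cannot be told apart. The labels name no animals, and p-values between genotypes therefore measure the spread between these 5 libraries, which may be technical. In library sums, fewer cells of a type and less RNA per cell cannot be told apart.

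The cells held 9370123 unique molecular identifiers (UMIs, 1 per captured transcript) in all, 254514 to 2608702 per library, with a median of 5061 to 6364 per cell. The targeted gene matched the labels: Zbtb16 stood at 75.9, 51.1 and 71.4 CPM (UMIs per 1000000 UMIs of a library) in Plzf +/+ libraries against 18.1 and 11.9 in Plzf lu/lu, a log2 fold change of -1.97 (SE 0.30, edgeR adjusted p = 0.0319). Few of the sorted cells held Eomes itself: it had a UMI in 89 of the 1249 cells, and stood at 20.4, 11.8 and 11.7 CPM against 1.97 and 0 (log2 fold change -3.02, SE 0.65, edgeR adjusted p = 0.0801). Of the 376 well barcodes, 358 occurred in more than 1 library. The Plzf +/+ library of plate 1 stood apart from the other 4 in cells rich in spermatid transcripts. They made up 2.52% of its cells, against 9.24% and 8.3% in the other Plzf +/+ libraries and 5.41% and 5.26% in Plzf lu/lu. A marker list for spermatids summed to 1574, 6288 and 5983 CPM in Plzf +/+ and to 2419 and 6783 in Plzf lu/lu, and none of its 14 genes was at 0 in any library. Values of the germ cell forms are therefore also given without plate 1.

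Glycolysis splits glucose into pyruvate in the cytosol and yields ATP, and lactate dehydrogenase interconverts pyruvate and lactate. Spermatogonia are thought to rely strongly on glucose, while spermatocytes and spermatids take up lactate that Sertoli cells release. Several steps are taken over in meiotic and haploid germ cells by separate genes: Pgk2 is a retrogene of the X-linked Pgk1, Pdha2 is a retrogene of the X-linked Pdha1, and Gapdhs and Ldhc encode isozymes found in sperm. X-linked genes are silenced in meiosis, and the autosomal copies provide the enzyme there.

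The upstream sequences of the paired genes differed in their content of CG dinucleotides, the bases at which mammalian DNA is methylated. Windows of the 250 bases before the RefSeq start (GRCm38.p6) were matched for 32 of the 33 genes; Slc2a3 had none. Across 32851 such windows of all genes the median was 6 CG, and 53.7% held at most 6. The window of Pgk1 held 17 and that of Pgk2 held 3. The Pgam1 window held 22 and the Pgam2 window 1, and the X-linked Pdha1 held 15 against 4 for Pdha2 on chromosome 3. Gapdh held 8, while the 2 entries of Gapdhs held 1 and 0. Ldha had entries with 25 and 9 and Ldhc entries with 8 and 3, so the germ cell form was the lower one at all of these steps, though Ldhc was above the median of all windows at 1 entry. The GC box GGGCGG, read on both strands, occurred in 20 of the 47 windows of these genes (42.6%) against 32.7% of all windows, and in at least 1 window of 18 of the 32 genes (56.2%) against 35.4% of the 27025 genes with a window. Pgk1, Ldha and Ldhc held it, and Pgk2, Gapdh and Gapdhs did not. The cAMP response element TGACGTCA, a binding sequence of the CREM family in germ cells, occurred only at Ldha, in 1 of the 47 windows, against 1.55% of all windows. These are matches of letters and were not tested as sites. The windows of Pgk1 and of the 3 germ cell forms are shown because the results below turn on these genes; each reads 5′ to 3′ towards the gene, with every CG in capitals.
Pgk1, chrX:106186850-106187099, plus strand: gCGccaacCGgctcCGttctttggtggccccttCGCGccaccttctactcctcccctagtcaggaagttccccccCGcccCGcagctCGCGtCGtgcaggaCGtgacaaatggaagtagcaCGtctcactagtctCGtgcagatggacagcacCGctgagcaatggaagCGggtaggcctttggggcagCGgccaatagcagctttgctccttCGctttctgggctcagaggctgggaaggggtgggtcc
Pgk2, chr17:40208610-40208859, minus strand: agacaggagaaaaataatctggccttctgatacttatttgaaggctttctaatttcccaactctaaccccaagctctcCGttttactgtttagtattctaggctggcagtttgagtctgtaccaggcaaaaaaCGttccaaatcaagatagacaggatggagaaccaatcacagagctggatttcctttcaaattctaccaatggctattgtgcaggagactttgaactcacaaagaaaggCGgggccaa
Gapdhs, chr7:30743682-30743931, minus strand: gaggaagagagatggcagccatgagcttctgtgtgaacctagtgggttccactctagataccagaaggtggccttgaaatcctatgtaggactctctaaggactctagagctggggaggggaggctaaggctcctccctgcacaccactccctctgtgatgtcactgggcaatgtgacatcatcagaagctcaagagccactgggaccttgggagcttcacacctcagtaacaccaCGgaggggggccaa
Ldhc, chr7:46861013-46861262, plus strand: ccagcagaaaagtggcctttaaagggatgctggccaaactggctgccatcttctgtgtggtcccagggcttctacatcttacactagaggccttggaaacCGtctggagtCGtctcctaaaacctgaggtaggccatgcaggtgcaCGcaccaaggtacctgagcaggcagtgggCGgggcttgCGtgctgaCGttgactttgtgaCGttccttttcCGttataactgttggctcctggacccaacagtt

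Ldhc was the most abundant of the 33 genes in 4 of 5 libraries. Counts here are of 3′ ends, so a level in CPM does not depend on transcript length. Its level was 323, 1686 and 1685 CPM in Plzf +/+ and 991 and 903 in Plzf lu/lu, and its UMIs made up between 10.7% and 34.4% of those of the 33 genes in a library. All 33 genes together took 3028, 5072 and 4893 CPM in Plzf +/+ and 4684 and 4911 in Plzf lu/lu. In plate 1 Gpi1 and Pkm stood above it. Summed over the libraries, Ldhc was followed by Gpi1, which isomerizes glucose 6-phosphate, with 440, 378 and 365 CPM against 524 and 561. Pkm, the pyruvate kinase gene of most tissues, followed with 327, 245 and 254 against 544 and 561. Genes at the low end were the brain enolase Eno2 with 2 UMIs in all and the lactate exporter Slc16a3 with 20, and both were left out of the genotype test for low counts.

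At most steps 1 gene gave most of the transcripts. The glucose transporter with the highest level summed over the libraries was Slc2a3, known from neurons and germ cells, at 25.9, 94.9 and 79.5 CPM against 60.6 and 7.95, ahead of Slc2a1 at 16.2 to 23.6 in the 5 libraries. Hexokinase transcripts came mainly from Hk1 (66.2, 70.6 and 90.2 CPM against 56.6 and 143) in the sum over libraries. Pfkp gave 55% of phosphofructokinase UMIs (30.6, 53.9 and 42.0 CPM against 34.6 and 11.9), but was the lowest of the 3 genes of that step in Plzf lu/lu of plate 4. Aldoa led the aldolases and Eno1 the enolases. Of the phosphoglycerate mutases, Pgam2, the muscle and sperm form, led by a wide margin, at 72.2, 350 and 299 CPM against 176 and 255, while Pgam1 ranged from 3.98 to 15.3. Lactate dehydrogenase UMIs were 82.5% Ldhc. Pdk1 led the pyruvate dehydrogenase kinases, which switch the complex off, at 121 to 149 CPM in the 5 libraries.

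**Figure D1:**
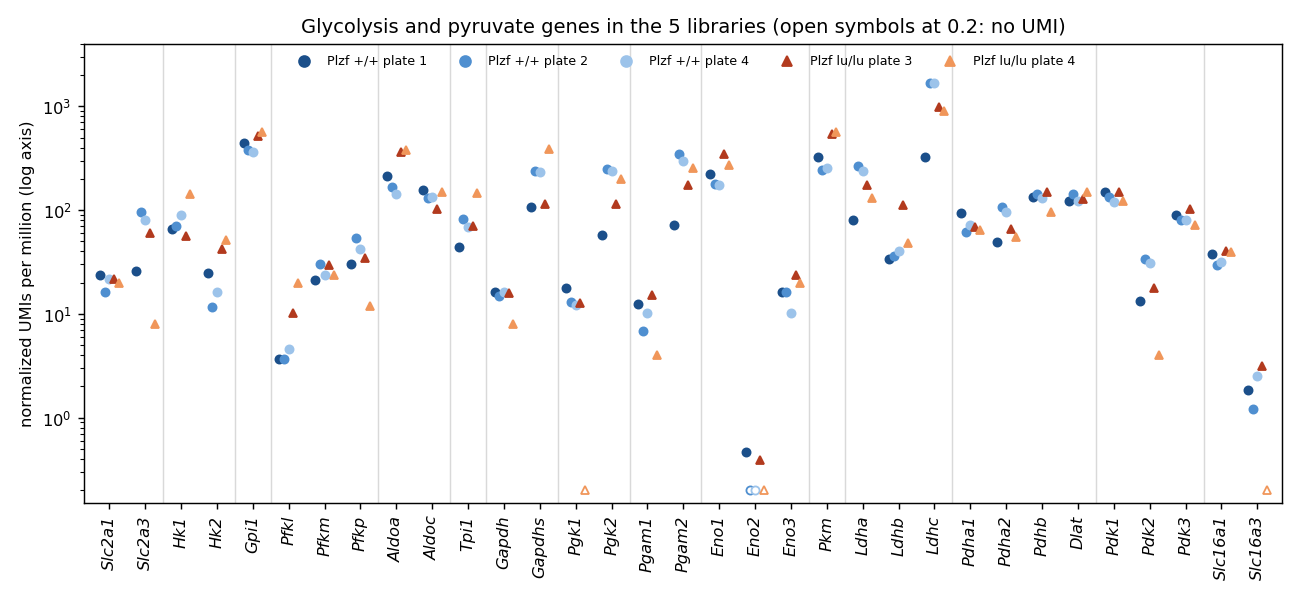
CPM of the genes of glycolysis and pyruvate metabolism on a log axis, 1 symbol per library (3 Plzf +/+ and 2 Plzf lu/lu). Ldhc reaches the highest level, and the Plzf +/+ library of plate 1 lies below the other libraries for Ldhc (323), Pgk2 (56.9) and Pgam2 (72.2).

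By the deposited counts, the germ cell form outnumbered the other form in every library at all 3 paired steps. The comparison rests on counts of Pgk1, Gapdh and Ldha that are uncertain because of processed copies, as set out below. Pgk2, the phosphoglycerate kinase of meiotic and haploid cells, stood at 56.9, 249 and 239 CPM in Plzf +/+ and at 116 and 199 in Plzf lu/lu. Pgk1 stood at 17.6, 13.0 and 12.2 against 12.6 and 0, where a count of 0 in the small plate 4 library allows up to 11.9. The share of Pgk2 in the UMIs of the pair was 76.4% (exact 95% interval 69.1 to 82.7), 95.1% and 95.2% in Plzf +/+ and 90.2% and 100% in Plzf lu/lu. Plate 1 was the lowest library in Pgk2 and in its share.

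Gapdhs, the sperm glyceraldehyde-3-phosphate dehydrogenase, measured 107, 239 and 235 CPM against 114 and 390, and Gapdh measured 16.2, 15.01 and 16.2 against 15.7 and 7.95. Gapdhs made up 86.9%, 94.1% and 93.5% of the pair in Plzf +/+ and 87.8% and 98% in Plzf lu/lu. The level of Gapdh was thus near that of Pgk1, although Gapdh is among the most abundant transcripts of many tissues. Gapdh, Pgk1, Pgam1 and Ldha have near-identical processed copies, and how reads shared with copies were counted is not given in the sources used here, so their counts are uncertain. Of the copies looked up in the tables, Pgk1-rs7 held 5 UMIs over all libraries, Pgam1-ps2 held 2 and Ldha-ps2 held 1.

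The lactate dehydrogenase pair differed from the other pairs in that both forms were abundant. Ldha, the muscle-type subunit, stood at 79.6, 264 and 238 CPM in Plzf +/+ and at 175 and 131 in Plzf lu/lu, and was lowest in the same library as Ldhc. Ldhc made up 80.2%, 86.4% and 87.6% of the pair in Plzf +/+ and 85.0% and 87.3% in Plzf lu/lu. The means of the shares were 84.7% ± 3.97 (SD, n = 3) and 86.2% ± 1.63 (SD, n = 2). For Pgk2 they were 88.9% ± 10.8 and 95.1% ± 6.93, and for Gapdhs 91.5% ± 3.99 and 92.9% ± 7.21. The ranges of the genotypes overlapped at all 3 steps, and an exact permutation test of 3 against 2 libraries cannot go below p = 0.1. Intervals of single libraries cover counting error only.

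The totals came from few cells. Ldhc had a UMI in 20.2%, 47.9% and 41.2% of Plzf +/+ cells and in 44.6% and 42.1% of Plzf lu/lu cells. Pgk2 had one in 6.94%, 19.5% and 17.7% against 15.6% and 13.2%, and Gapdhs in 4.73%, 14.2% and 15.5% against 13.1% and 13.2%. Gapdh, with far fewer UMIs than Gapdhs, still had one in 10.1%, 11.9% and 9.75% against 12.4% and 5.26%. Pgk1 was found in 8.3% to 10.4% of cells in 4 libraries and in 0 of the 38 Plzf lu/lu cells of plate 4, for which the limit of 3 counts is 7.89%. Its exact 95% interval reaches 9.25% and overlaps the range of the other libraries. After thinning to 2000 UMIs per cell, a depth that 1167 of the 1249 cells reached, the 10% of cells with the most UMIs of a gene held 81.9% of Ldhc, 77.8% of Ldha and 100% of Pgk2 and Gapdhs, against 39.1% of Pkm and 34.3% of Gpi1. A gene with a UMI in fewer than 10% of the thinned cells reaches 100% by construction.

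To see which cells these were, all 1249 cells were clustered on their other genes, with the 33 genes left out. Of the 7 clusters, 1 carried spermatid markers and is called spermatid-like (200 cells; 24, 70 and 61 in Plzf +/+ and 37 and 8 in Plzf lu/lu); its leading genes were Fabp9, Meig1, Crisp2, Prm2 and Fhl4. It held 26.1% of all UMIs, and 10.8%, 37.6% and 35.5% in the Plzf +/+ libraries and 20.6% and 28.1% in Plzf lu/lu. The same cluster held 96.8% of the Gapdhs UMIs, 96.2% of Pgam2, 96.1% of Pgk2 and 94.6% of Ldhc. By library its share was never below 88.5% for any of the 4. Gapdhs was at 661 CPM in these cells and at 6.31 in the clusters that were neither spermatid-like nor Sertoli cell-like, a ratio of 105. The ratio was 107 for Pgam2, 99.1 for Pgk2 and 71.5 for Ldhc. Because the clusters were formed from the same cells, these ratios are descriptions without a test. Cells were also split by Gfra1, a receptor gene of spermatogonial stem cells. Ldhc stood at 1196 CPM in the 700 cells with a Gfra1 UMI and at 1112 in the 549 without. Pgk2 stood at 168 and 162, and Gapdhs at 154 and 224. The germ cell forms were thus not confined to cells without a Gfra1 UMI.

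Ldha went with Ldhc, but Pgk1 and Gapdh did not. The spermatid-like cluster held 80.5% of the Ldha UMIs (584 against 44.9 CPM, a ratio of 13), 26.2% of Pgk1 (13.5 against 12.5) and 17.1% of Gapdh (10.2 against 17.6). Among its 200 cells, 139 held both Ldha and Ldhc, 48 held Ldhc alone and 6 held Ldha alone. Both Pgk1 and Pgk2 were found in 19 cells, and Gapdh and Gapdhs in 7. All 3 germ cell forms were found in 95 of these cells, 2 of them in 47, 1 in 48 and none in 10. The share of the germ cell form there was 97.8% for Pgk2, 98.5% for Gapdhs and 87.9% for Ldhc.

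**Figure D2:**
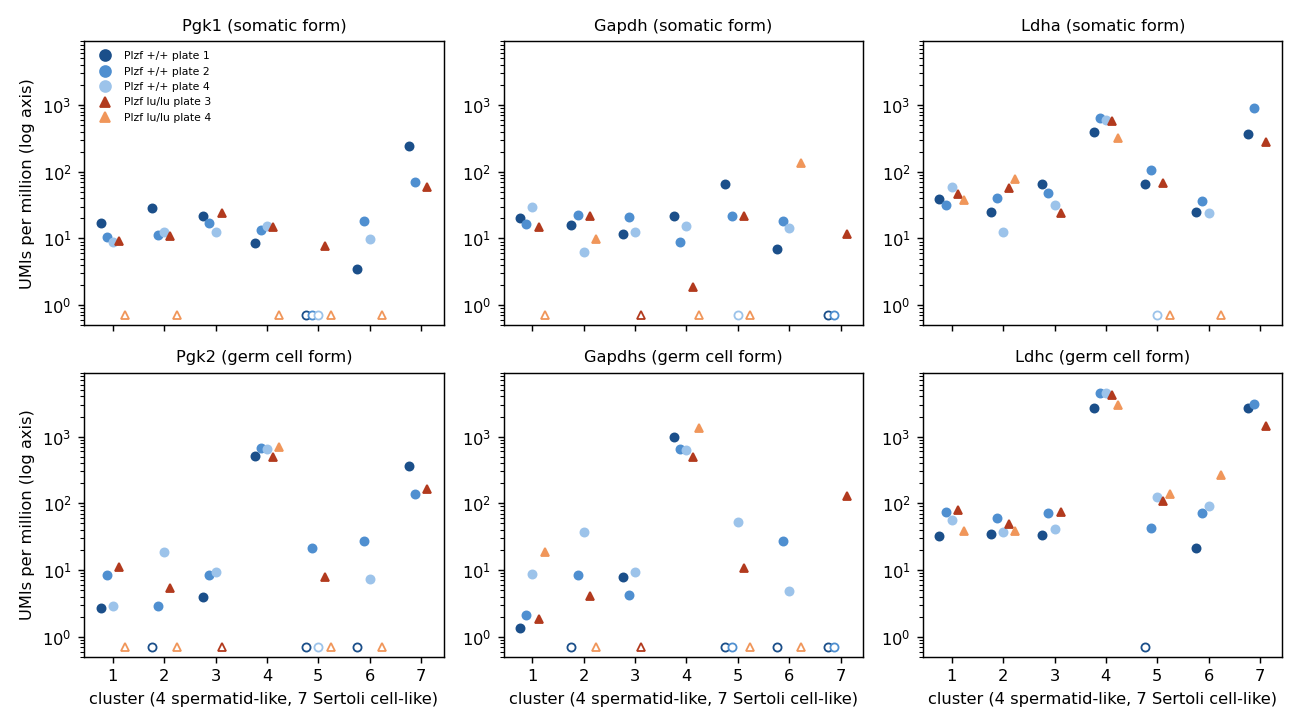
CPM of the paired forms in each cluster on a log axis, 1 symbol per library with at least 3 cells in the cluster; open symbols mark libraries with no UMI of the gene. Pgk2, Gapdhs and Ldhc are highest in the spermatid-like cluster, while Pgk1 (13.5 CPM in it, 12.5 in the other clusters) and Gapdh (10.2 and 17.6) are not.

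Outside the spermatid-like and Sertoli cell-like clusters, 1020 cells remained (median 5858 UMIs, against 7971 in spermatid-like cells). Ldhc still had a UMI in 26% of them, Pgam2 in 4.12%, Pgk2 in 3.73% and Gapdhs in 3.53%. In the 29 Sertoli cell-like cells (median 3162 UMIs), named for the somatic nurse cells of the tubule, Ldhc had a UMI in 93.1%, Pgk2 in 37.9% and Gapdhs in 20.7%. For each Ldhc UMI there were 0.144 Pgk2, 0.156 Gapdhs, 0.197 Pgam2 and 0.138 Ldha UMIs in spermatid-like cells. The values were 0.0995, 0.0576, 0.147 and 0.209 in Sertoli cell-like cells, and 0.104, 0.107, 0.132 and 0.759 in the other clusters. Whether UMIs of these genes in the Sertoli cell-like and other clusters came from the cells' own transcripts, from free RNA or from neighbouring germ cells was not tested. In the other clusters the share of the germ cell form was 33.1% for Pgk2, 26.4% for Gapdhs and 56.8% for Ldhc.

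Within the spermatid-like cells the germ cell forms were not present in fixed proportion. A finer clustering of all cells placed most of them in 2 clusters, below called the part with few and the part with many spermatid transcripts. The first had 93 cells, 88 of them from the spermatid-like cluster, with a median of 0.0714% of UMIs from the spermatid list, and was led by Meig1, Fabp9 and Crisp2. The second had 111 cells, 110 of them from that cluster, with a median of 0.841%. Values for both include the few cells from outside it. The spermatid list stood at a median of 0.0145% in cells outside the spermatid-like cluster. A spermatocyte list stood at a median of 0.206% in the first part, 0.185% in the second and 0.104% outside. T cell genes were also among the genes of highest fold in the first part, which carries no cell type name here. Ldhc had like levels in both, 4132 and 4202 CPM, and so did Ldha with 613 and 561. Gapdhs went from 42 to 1026 and Pgk2 from 270 to 806, with Pgam2 in between at 706 and 899.

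The libraries with at least 3 cells in both parts were the 3 Plzf +/+ libraries and plate 3 of Plzf lu/lu. In them Gapdhs measured 36.9, 32.3, 27.8 and 74.9 CPM in the part with few spermatid transcripts and 1829, 1088, 895 and 741 in the part with many. Pgk2 measured 166, 310, 306 and 229 in the first and 804, 930, 796 and 634 in the second. Both genes were higher in the second part in 4 of 4 libraries. Ldhc measured 3565, 3851, 4653 and 4321 in the first part and 1895, 4957, 4493 and 3719 in the second, and was higher in 1 of 4. Counted another way, cells with at least 0.5% of their UMIs from the spermatid list held 87.2% of Gapdhs, 60.7% of Pgk2, 44.6% of Pgam2, 37.4% of Ldhc and 29.5% of Ldha, against 10.2% of all UMIs. Without those cells the share of Gapdhs in its pair was 31.4%, 65.4% and 60.8% in Plzf +/+ and 65.2% and 83.3% in Plzf lu/lu. The share of Pgk2 was then 47.2%, 90.8% and 87.2% against 85% and 100%.

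**Figure D3:**
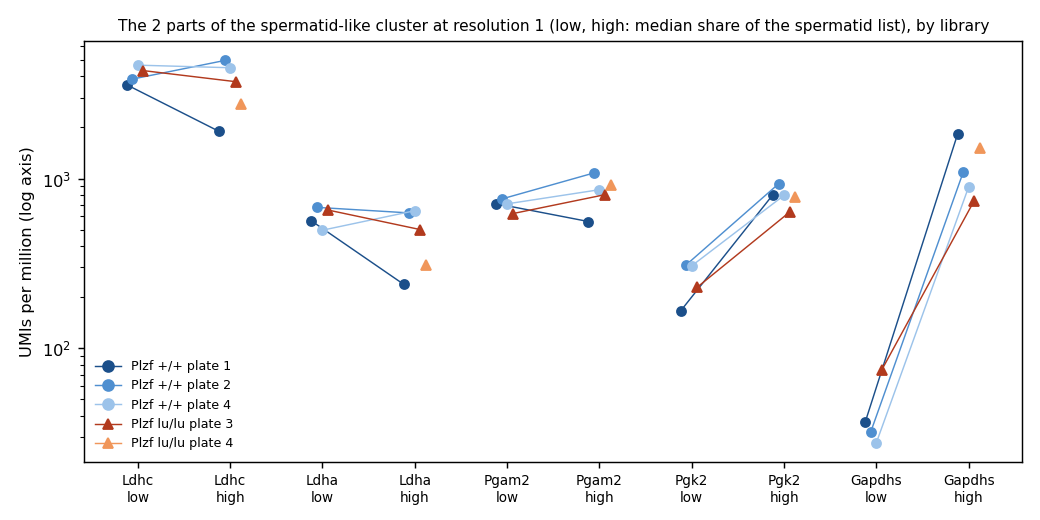
CPM on a log axis in the finer clusters with few and with many spermatid transcripts, 1 line per library with at least 3 cells. Gapdhs and Pgk2 lie higher in the part with many spermatid transcripts in each library drawn in both, and Ldhc and Ldha do not.

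Other steps had genes concentrated in the same cells. Of 31 genes with at least 50 UMIs, 11 had over 50% of their UMIs in the spermatid-like cluster, which held 26.1% of all UMIs. That is 35.5% of them, against 14.8% of all 12859 genes with at least 50 UMIs. Besides the 5 named above these were Slc2a3 (77.9%), Tpi1 (66.9%), Hk1 (66.2%), Pdha2 (66%), Pdk2 (65%) and Pfkp (61.7%). These shares pool libraries in which the cluster held 10.8% to 37.6% of all UMIs, and 6 of the 11 genes were over 50% in every library: Gapdhs, Pgk2, Pgam2, Ldhc, Ldha and Hk1. Slc2a3 was at 44.6%, Pdha2 at 28.3%, Pfkp at 28.8% and Pdk2 at 27.6% in plate 1, and Tpi1 at 49.4% in plate 3. In Plzf lu/lu of plate 4 Pfkp was at 33.3%, and Pdk2, with 1 UMI there, at 0%. Pdk2 was thus not above the cluster's share in every library. Uptake, hexokinase, phosphofructokinase and triosephosphate isomerase were thus each represented. Pdha2, the retrogene for the E1 alpha subunit of pyruvate dehydrogenase, was at 200 CPM there and at 36.4 in the other clusters, while the X-linked Pdha1 was at 38.5 and 87. In total 12 genes lay above the cluster's share of all UMIs in every library in which they were counted.

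A second group of 14 genes (45.2%, against 66% of all genes with at least 50 UMIs) lay below 26.1%, among them Pdk1 (13%), Pdha1 (13.7%), Aldoc (14.6%), Pkm (15.4%), Aldoa (19.2%), Gpi1 (19.4%) and Eno1 (19.5%). Of the 31 genes, 7 were below the cluster's share in every library: Hk2, Aldoc, Pkm, Pdha1, Pdhb, Pdk1 and Pdk3. In the pooled shares, isozymes of 1 step fell on different sides in these cells: Hk1 and Hk2, Pgam2 and Pgam1, Pdha2 and Pdha1, and Pdk2 and Pdk1. Pgam1 was above the cluster's share in plate 1 (22.2% against 10.8%) and, on 1 UMI, in Plzf lu/lu of plate 4 (100% against 28.1%). At the aldolase, enolase and pyruvate kinase steps no listed gene had over 50% of its UMIs in the spermatid-like cells. The highest share there was 28.8% for Eno3, which lay above the cluster's share in every library. Copies of aldolase known from sperm, Aldoart1 and Aldoart2, were in the tables but outside the list.

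The genes whose counts followed the summed germ cell forms most closely from cell to cell were sought among cells thinned to 2000 UMIs. In 834 Plzf +/+ cells the first 5 of 6878 genes by rank were Crisp2 (Pearson r = 0.82, Spearman rho = 0.67), Fhl4, Fabp9, Meig1 and Asrgl1. In 333 Plzf lu/lu cells the first 5 of 6653 were Crisp2 (0.87 and 0.65), Fabp9, Hrasls5, Fam229b and Ybx2. Pgam2 was the first of the 33 genes in both, in place 9 in Plzf +/+ (0.67 and 0.54) and place 7 in Plzf lu/lu (0.73 and 0.55), followed by Ldha in places 80 and 127. Pdk1 in Plzf +/+ and Pkm in Plzf lu/lu came last among the ranked members, with r = -0.10 and -0.11. Cells of 1 library share its depth and its plate, and these correlations are descriptions.

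Between the genotypes, 2 of the 31 tested genes passed the threshold, Pkm and Aldoa, both higher in Plzf lu/lu. That is 6.45% of them, against 0.816% of all 13728 genes tested (112 genes, edgeR quasi-likelihood test, Benjamini-Hochberg adjusted p under 0.05). Both Plzf lu/lu libraries lay above all Plzf +/+ libraries for 9 of the 31 (29%), against 18.5% of all genes tested, and below all of them for 0, against 16.0%. The 9 were Hk2, Gpi1, Pfkl, Aldoa, Eno1, Eno3, Pkm, Ldhb and Slc16a1. The fitted log2 fold change was above 0 for 18 and below 0 for 13, with a median of 0.08 against 0.00 over all genes.

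Pkm makes pyruvate in the last step of glycolysis. Its counts were 707, 605 and 502 UMIs in Plzf +/+ and 1384 and 141 in Plzf lu/lu, or 327, 245 and 254 against 544 and 561 CPM. The groups did not overlap. The log2 fold change was 1.00 (SE 0.16, edgeR adjusted p = 0.0348). Aldoa, the aldolase of muscle and many other tissues, had 465, 412 and 285 UMIs against 923 and 95, or 215, 167 and 144 against 363 and 378 CPM, again without overlap. Its log2 fold change was 1.07 (SE 0.18, edgeR adjusted p = 0.0471). Within plate 4, which held both genotypes, Pkm stood at 254 in Plzf +/+ and 561 in Plzf lu/lu and Aldoa at 144 and 378. Without the 5 plate 4 cells in wells of the other genotype, a comparison added after seeing the data, edgeR adjusted p was 0.0364 for Pkm and 0.0488 for Aldoa. Both calls depended on which libraries entered the fit: leaving out plate 1 kept them, while leaving out any other library gave edgeR adjusted p of 0.174 to 0.346 for Pkm and 0.199 to 0.355 for Aldoa, with log2 fold changes of 0.89 to 1.01 and 0.90 to 1.09. In cells with a UMI of Gfra1, a receptor gene of spermatogonial stem cells, the log2 fold change was 1.27 for Pkm and 1.18 for Aldoa, with edgeR adjusted p of 0.0574 and 0.0693.

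**Figure D4:**
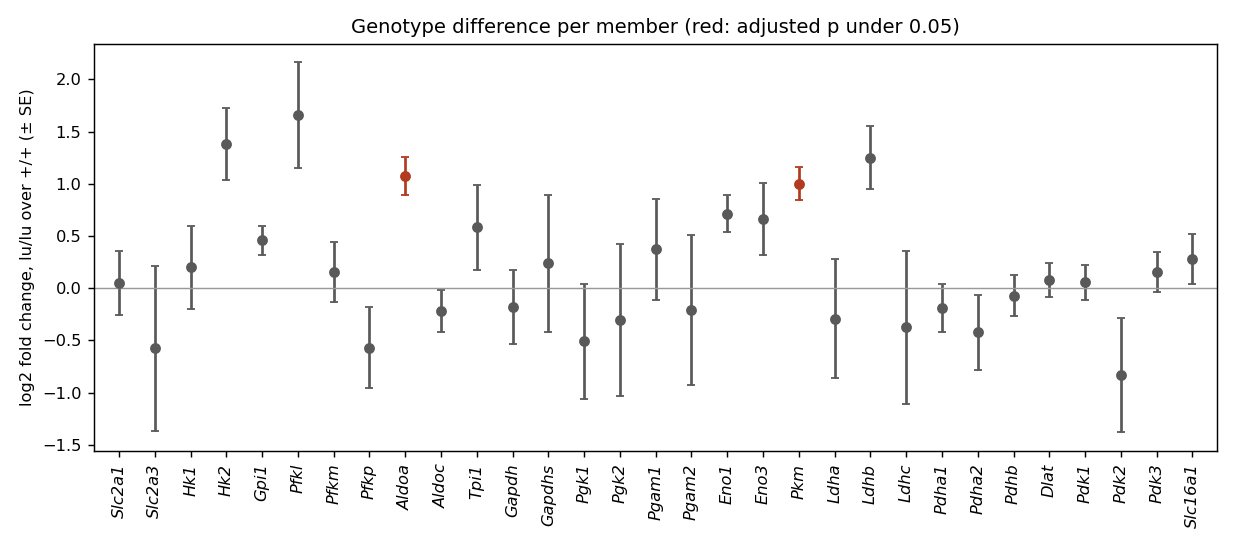
Log2 fold change of Plzf lu/lu against Plzf +/+ for the 31 tested genes, with bars of 1 standard error from the edgeR fit. Pkm (1.00) and Aldoa (1.07) are the genes past the threshold, and the germ cell forms have errors of 0.65 to 0.73.

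Sertoli cell markers moved with the genotype as well. A list of 14 markers, 13 of them found, summed to 551, 479 and 475 CPM in Plzf +/+ and 1169 and 803 in Plzf lu/lu. Ctsl alone gave 438, 338 and 334 CPM of these sums against 478 and 314, with overlap, so the other markers rose by a larger factor than the sum. Summed over the libraries none of those found was at 0, though Fshr was at 0 in 4 libraries and Inhbb in 2, and 6 of the 10 tested were higher in Plzf lu/lu (edgeR adjusted p under 0.05). The Sertoli cell-like cluster had 3, 6 and 0 cells in Plzf +/+ and 19 and 1 in Plzf lu/lu. It held 1.62% of the Pkm UMIs and 2.57% of those of Aldoa, against 1.2% of all UMIs. With these 29 cells removed, a comparison chosen after seeing the data, the log2 fold change was 1.03 for Pkm (edgeR adjusted p = 0.042) and 1.07 for Aldoa (edgeR adjusted p = 0.0636); 0.467% of all genes tested then passed. The part of Sertoli cell transcripts in other wells was not tested.

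Cluster 2, called undifferentiated spermatogonia-like and led by Sdc4, Iah1, Uchl1 and Dmrt1, had cells of all 5 libraries (56, 61 and 30 in Plzf +/+, 77 and 13 in Plzf lu/lu). The name rests on 1 listed marker among its leading genes, Egr4, and on 5 listed markers detected. Egr4 was itself higher in Plzf lu/lu (log2 fold change 1.78, edgeR adjusted p = 0.0185). In cluster 2 Pkm stood at 411, 424 and 414 CPM against 733 and 802, and Aldoa at 288, 222 and 188 against 417 and 396. Each Plzf lu/lu value was above every Plzf +/+ value. These cells held 316437, 351019 and 159451 UMIs in Plzf +/+ and 746289 and 103472 in Plzf lu/lu. UMIs per cell were thus higher in Plzf lu/lu, and the part of this difference in depth was not tested. A fit to this cluster alone, also chosen after seeing the data, gave log2 fold changes of 0.89 for Pkm (SE 0.15, edgeR adjusted p = 0.000102) and 0.82 for Aldoa (SE 0.18, edgeR adjusted p = 0.0045). They were the only calls among the 18 listed genes tested there, and 2.91% of the 6601 genes passed. The cluster was not of 1 kind, however, and the finer clustering placed most of its cells in 2 clusters of unlike makeup. Neither of these carried a cell type name. In the finer cluster with Dqx1, Coro1a and Mycn (20, 26 and 8 of these cells in Plzf +/+, 67 and 10 in Plzf lu/lu) Pkm stood at 423, 397 and 339 CPM against 753 and 818, and Aldoa at 285, 290 and 194 against 424 and 414. In the finer cluster with Upp1 and Igfbp6 (21, 27 and 18 cells against 6 and 2) Pkm stood at 447, 525 and 490 against 420 and 637 and Aldoa at 314, 131 and 216 against 382 and 212. The genotypes did not overlap in the first and overlapped in the second, where Plzf lu/lu had few cells. These values carry no test. Another group of its cells (7, 3 and 1 against 3 and 1) fell in a finer cluster led by Defb19, Tmsb4x, Gstm1 and Cst9, with Dcn and Col3a1 among its genes of highest fold. Without these cells, again a comparison chosen after seeing the data, the log2 fold change in cluster 2 was 0.86 for Pkm (edgeR adjusted p = 0.000302) and 0.77 for Aldoa (edgeR adjusted p = 0.0113). In cluster 1, led by histone genes and Top2a, Pkm was at 284, 295 and 260 against 385 and 170, so the genotypes overlapped. In the spermatid-like cluster, which is cluster 4, Pkm was at 313, 142 and 166 against 295 and 545, with overlap, and Aldoa at 187, 146 and 131 against 223 and 447, without overlap. In the 29 Sertoli cell-like cells, cluster 7, Pkm was at 608 and 767 CPM in the Plzf +/+ cells of plates 1 and 2 against 445 in plate 3. Aldoa was at 486 and 69.7 against 598 there, on 4 and 1 UMIs against 51. The single Plzf lu/lu cell of plate 4 in that cluster had no UMI of either gene. Cluster 3, with T and Lhx1, held 96, 78 and 53 Plzf +/+ cells but 4 and 0 Plzf lu/lu cells. Pkm was at 389, 271 and 324 CPM there against 561 in the 4 cells of plate 3. Aldoa was at 179, 126 and 96.7 against 244, the last on 10 UMIs. The makeup of 2 further unnamed clusters also moved with the genotype. Cluster 5, led by Gm10800 and like transcripts, had 9, 16 and 19 Plzf +/+ cells and 119 and 6 Plzf lu/lu cells, with Pkm at 295, 108 and 301 CPM against 626 and 487 and Aldoa at 164, 368 and 284 against 392 and 487. Cluster 6, led by Gm23935 and Lars2, had 46, 21 and 71 cells against 1 and 3. Pkm was at 282, 378 and 261 CPM there against 436 and 405, on 7 and 3 UMIs in Plzf lu/lu. Aldoa was at 211, 198 and 98.9 against 311 and 676, on 5 UMIs in each Plzf lu/lu library. Over all its cells cluster 5 stood at 557 CPM for Pkm and 376 for Aldoa, and cluster 6 at 288 and 160. The part of this shift in makeup in the levels of the library sums was not tested.

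**Figure D5:**
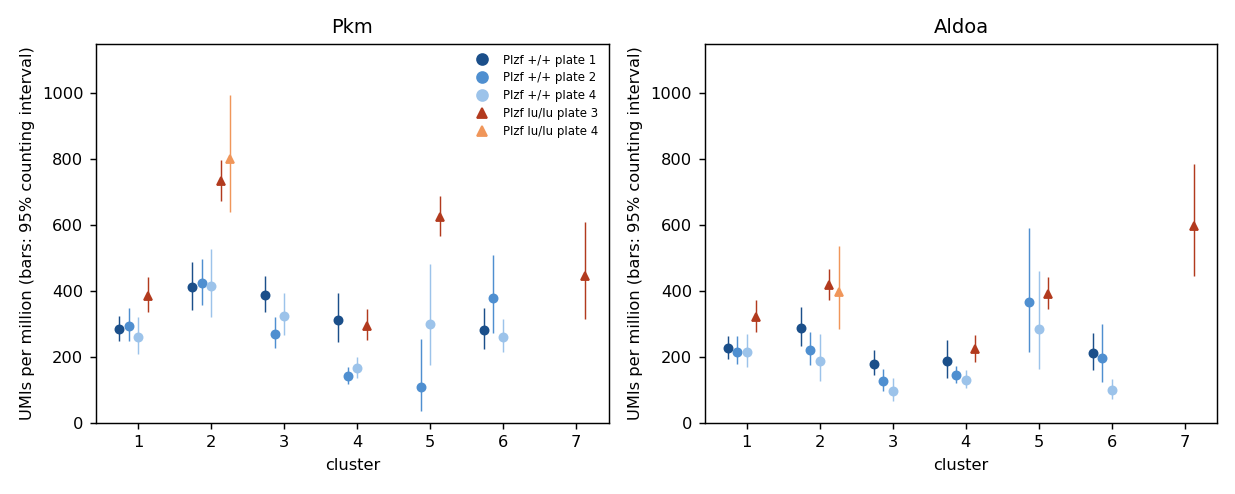
CPM of Pkm and Aldoa by cluster and library, for libraries with at least 10 cells in the cluster, with bars of the 95% Poisson counting interval. In cluster 2 the Plzf lu/lu libraries lie above the Plzf +/+ libraries for both genes.

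The other genes without overlap did not pass the adjusted threshold in the fit to all cells and libraries, though several passed in alternatives. Hk2, Eno1, Gpi1 and Ldhb passed without plate 1, where 10.2% of all genes tested passed. Hk2, Eno1 and Ldhb passed with no filter on low counts (2.27% of all genes) and without cells over 4 times the median UMIs (5.02%). Hk2, an inducible hexokinase, stood at 24.5, 11.8 and 16.2 CPM against 42.5 and 51.7 (log2 fold change 1.38, SE 0.35, edgeR adjusted p = 0.128). Eno1, the general enolase, stood at 225, 177 and 175 against 347 and 274 (0.72, SE 0.18, edgeR adjusted p = 0.12). Gpi1 had a log2 fold change of 0.46 (SE 0.14, edgeR adjusted p = 0.19). Pfkl, the liver phosphofructokinase, had the largest fitted value of the 31, 1.65 (SE 0.51, edgeR adjusted p = 0.196), on 8, 9 and 9 UMIs against 26 and 5. Ldhb, the heart-type lactate dehydrogenase subunit, measured 33.8, 36.5 and 40.5 CPM against 111 and 47.7 (1.25, SE 0.30, edgeR adjusted p = 0.116). Its high value belonged to plate 3, and 35.3% of its UMIs lay in the 29 Sertoli cell-like cells, as did 29.8% of those of Pfkl. Slc16a1, a monocarboxylate transporter gene, stood at 37.5, 29.6 and 31.9 against 40.1 and 39.8 (0.28, SE 0.24, edgeR adjusted p = 0.697).

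No difference between the genotypes was detectable for the germ cell forms at this number of libraries. The log2 fold change was -0.38 for Ldhc (SE 0.73, edgeR adjusted p = 0.927), -0.30 for Pgk2 (SE 0.73, edgeR adjusted p = 0.952) and 0.24 for Gapdhs (SE 0.65, edgeR adjusted p = 0.964), and the genotypes overlapped for each. Ldha (-0.29, SE 0.57), Pgk1 (-0.51, SE 0.55) and Gapdh (-0.18, SE 0.35) overlapped too. Plate 1 was the lowest Plzf +/+ library for all 3 germ cell forms. Without it Ldhc was at 1686 and 1685 against 991 and 903 CPM, and its log2 fold change of -0.83 passed (edgeR adjusted p = 0.000919). Pgk2, Pgam2, Ldha, Pdha2 and Pdk2 passed as lower in Plzf lu/lu in the same comparison, in which 12 of the 31 genes and 10.2% of all genes passed, while Gapdhs, at 239 and 235 against 114 and 390, did not. Plate 1 was set apart for its few spermatid-rich cells and was also the lowest Plzf +/+ library for each of these genes. Leaving it out on that ground favors lower values in Plzf lu/lu, so these calls are not an independent test. The share of spermatid-rich cells was 2.52%, 9.24% and 8.3% in Plzf +/+ and 5.41% and 5.26% in Plzf lu/lu. It moved with the values of Ldhc but not with those of Gapdhs within Plzf lu/lu, and its part was not tested. Within plate 4 Ldhc stood at 1685 in Plzf +/+ and 903 in Plzf lu/lu, Pgk2 at 239 and 199, and Gapdhs at 235 and 390. In Plzf lu/lu of that plate 2 spermatid-rich cells held 88 of the 98 Gapdhs UMIs and 32 of the 50 Pgk2 UMIs. The log2 fold change turned for Ldhc (0.18), Pgk2 (0.01) and Ldha (0.13) when spermatid-rich cells were left out, and for Gapdhs when plate 1 was left out (-0.26) and in cells with a Gfra1 UMI (-2.08).

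The pyruvate dehydrogenase complex admits pyruvate to mitochondrial oxidation. None of its genes or kinases passed the threshold between genotypes in the fit of all 5 libraries. Pdhb measured 133, 144 and 132 CPM against 151 and 95.4, and Dlat 124, 142 and 123 against 128 and 151, with log2 fold changes of -0.07 and 0.08. Pdk1 measured 148, 133 and 121 against 149 and 123. Pdha2 measured 49.1, 107 and 95.2 against 65.7 and 55.7, and was lowest in plate 1.

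Of 39 other genes of connected pathways, 34 were in the tables and 26 entered the test, and 0 passed by edgeR. Of these, 17 had a log2 fold change above 0 and 9 below, with a median of 0.09. At an unadjusted p under 0.05 stood 3 genes (11.5%, against 14.2% of all genes tested), each with the genotypes apart and Plzf lu/lu on top: Pgd and Tkt of the pentose phosphate pathway, and Gpd1, which links glycolysis to glycerol lipids. Pgd was at 73.6, 70.2 and 63.3 CPM against 126 and 107 (log2 fold change 0.79, SE 0.17, edgeR adjusted p = 0.0801). Both Plzf lu/lu libraries lay above all Plzf +/+ libraries for 8 of the 26 (30.8%, against 18.5% of all genes tested) and below them for 3 (11.5%, against 16.0%), Pfkfb1, Eno4 and Dld. Among transcription factors known to act on glycolytic genes, Hif1a measured 85.2, 60.4 and 85.6 against 70.0 and 59.7 (-0.21, edgeR adjusted p = 0.788), Epas1 16.7, 12.2 and 17.2 against 27.5 and 19.9 (0.73, edgeR adjusted p = 0.354), and Arnt 26.4, 28.0 and 30.4 against 17.7 and 31.8 (-0.41, edgeR adjusted p = 0.656). Myc and Mycl were left out of the test for low counts. Mycn measured 21.8, 19.5 and 16.7 against 64.9 and 43.7, a log2 fold change of 1.57 (SE 0.26, edgeR adjusted p = 0.043). This call too was lost when a library other than plate 1 was left out (log2 fold change 1.16 to 1.74, edgeR adjusted p of 0.0985 to 0.421). It was also lost without Sertoli cell-like cells (1.60, edgeR adjusted p = 0.0533) and in cells with a Gfra1 UMI (2.28, edgeR adjusted p = 0.0574). Whether Mycn had a part in the levels of Pkm or Aldoa was not tested.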

How the data were processed

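Single tdTOMATO+ testis cells were sequenced from their 3′ ends with UMIs. The authors deposited UMI counts per gene and cell for Plzf +/+ and Plzf lu/lu, demultiplexed with bcl2fastq 2.18.0.12, handled with Picard 2.9.3 and aligned to GRCm38 with STAR 2.5.4a per the labels. Counts were summed per library and tested over all genes with edgeR 4.0.16 (filterByExpr, TMM, quasi-likelihood test, 3 against 2 libraries, no covariate, R 4.3.3). CPM (UMIs per 1000000) use TMM-scaled library sizes for library sums and plain totals within clusters. Cells were clustered with scanpy 1.11.5 (2000 variable genes, 20 components, 15 neighbors, Leiden resolution 0.5, alternative 1) without the 33 genes, and clusters were named from marker lists. No cell was filtered and no doublet caller was run. Intervals are exact (Clopper-Pearson for shares, Poisson for counts), at 95%, and cover counting error only; a count of 0 is given the limit of 3 counts. Named genes were the paired forms, the genes past the threshold, those without overlap and the first of each step. Alternatives were DESeq2 1.42.0, no filter, each library left out, a replicate block and subsets or thinning of cells. Members and lists were chosen with earlier results of these data known.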

Additional observations from a re-analysis of the deposited data

How the results depend on the processing

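Over all genes, 112 passed between the genotypes. The count was 134 with DESeq2, 583 with no filter on low counts, 375 without spermatid-rich cells, 671 without cells over 4 times the median UMIs, 413 with cells thinned to 2000 UMIs and 11 in cells with a Gfra1 UMI. In comparisons chosen after seeing the data it was 64 without Sertoli cell-like cells, 1759 without these and the spermatid-like cells, 192 in cluster 2 (163 without its cells in the finer cluster led by Defb19), and 108 without the 5 plate 4 cells in wells of the other genotype. Leaving out 1 library gave between 1 and 1387 genes, the latter without plate 1. A replicate block on the numbers in the titles gave 0 (973 genes at an unadjusted p under 0.05, edgeR). Deviations of same-numbered libraries correlated at 0.023 and -0.006, so the numbers do not pair them, and those of both genotypes on plate 4 correlated at 0.047. The causes of these shifts were not tested. Pkm and Aldoa kept a positive log2 fold change in every alternative run, of 0.86 to 1.27 and 0.77 to 1.40. Both calls were lost without each library but plate 1, under the block (edgeR adjusted p = 0.595 for each, and for Mycn) and in Gfra1 cells, and that of Aldoa without Sertoli cell-like cells. Among the 31 listed genes, besides Pkm and Aldoa, edgeR called Ldhb without spermatid-rich cells, Eno1 and Ldhb in thinned cells, Eno1, Hk2 and Ldhb with no filter and without cells over 4 times the median UMIs, and Eno1, Gpi1, Hk2 and Tpi1 without Sertoli cell-like and spermatid-like cells. Without plate 1 it called 10 more than these 2: Eno1, Gpi1, Hk2, Ldhb, Ldha, Ldhc, Pdha2, Pdk2, Pgam2 and Pgk2.

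The sign of a log2 fold change turned in 72 of 494 alternatives over all results, and none of these values belonged to a gene past the threshold in the comparison of all 5 libraries. Leaving out each library in turn gave -0.10 to 0.18 for Slc2a1, -0.42 to 0.90 for Hk1, -0.09 to 0.30 for Pfkm, -0.45 to 0.08 for Aldoc, -0.77 to 0.99 for Gapdhs, -0.83 to 0.11 for Pgk2 and -1.30 to 0.71 for Pgam1. It gave -0.70 to 0.17 for Pgam2, -0.32 to 0.01 for Pdha1, -0.53 to 0.14 for Pdhb, -0.02 to 0.21 for Dlat, -0.14 to 0.16 for Pdk1 and -0.23 to 0.31 for Pdk3. The replicate block gave 0.38 for Pgk2, 0.44 for Pgam2, 0.17 for Ldha, 0.38 for Ldhc and -0.04 for Pdk1. In cells with a Gfra1 UMI the values were -0.56 for Hk1, -0.21 for Tpi1, -2.08 for Gapdhs, 0.04 for Pdha1 and -0.13 for Dlat. Without spermatid-rich cells they were -0.07 for Hk1, 0.01 for Pgk2, 0.01 for Pgam2, 0.13 for Ldha and 0.18 for Ldhc. Without cells over 4 times the median UMIs they were -0.05 for Slc2a1, 0.14 for Pgk2, 0.09 for Pgam2, 0.10 for Ldha, 0.14 for Ldhc and -0.03 for Pdk1. With cells thinned to 2000 UMIs they were -0.22 for Slc2a1, 0.16 for Pgk2, 0.51 for Pgam2, 0.21 for Ldha, 0.10 for Pdha2, 0.18 for Pdhb, -0.21 for Dlat and -0.12 for Pdk1. Without Sertoli cell-like and spermatid-like cells they were -0.0029 for Slc2a1, -0.0002 for Pfkm, 0.13 for Gapdh, 0.24 for Pgk2, 0.83 for Pgam2, 0.60 for Ldha, 0.52 for Ldhc and 0.03 for Pdhb. In cluster 2 they were -1.03 for Slc2a1, -0.53 for Hk1, 0.22 for Aldoc, 1.10 for Ldha, 0.06 for Ldhc, 0.02 for Pdha1, 0.08 for Pdha2 and -0.07 for Pdk1. Without its cells in the finer cluster led by Defb19 they were -1.02 for Slc2a1, -0.56 for Hk1, 0.18 for Aldoc, 0.99 for Ldha, 0.10 for Ldhc, 0.21 for Pdha2 and -0.10 for Pdk1.

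The share of cells with a UMI depends on depth by construction. At 1000 UMIs per cell the mean share over Plzf +/+ libraries was 1.66% for Pgk1, 6.38% for Pgk2, 1.51% for Gapdh, 10.2% for Ldha and 17.8% for Ldhc. At 2000 UMIs it was 2.61% for Pgk1, 7.86% for Pgk2, 2.84% for Gapdh and 14.5% for Ldha. For Plzf lu/lu it was 5.02% for Pgk2, 2.91% for Gapdh, 6.01% for Gapdhs, 9.23% for Ldha and 18.6% for Ldhc at 1000 UMIs, and 12.1%, 3.21%, 6.58%, 12% and 25.6% at 2000 UMIs. At 2000 UMIs the plates of Plzf lu/lu differed, with 6.91% in plate 3 and 17.2% of 29 cells in plate 4 for Pgk2, and 17.1% and 6.9% for Ldha. For Gapdh the Plzf +/+ libraries had 2.52%, 1.65% and 0.362% at 1000 UMIs. Asking for at least 2 UMIs at full depth gave 0.76% for Pgk1, 0.905% for Gapdh, 13.4% for Ldha and 21.9% for Ldhc in Plzf +/+, and 9.23% for Pgk2, 0.159% for Gapdh (0.318% in plate 3 and 0 cells in plate 4), 6.97% for Gapdhs, 17% for Ldha and 24.1% for Ldhc in Plzf lu/lu.

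Without spermatid-rich cells the mean share of the germ cell form in its pair was 75.1% for Pgk2 and 52.5% for Gapdhs in Plzf +/+ and 74.2% for Gapdhs in Plzf lu/lu. In cells with a Gfra1 UMI it was 64.5% for Gapdhs and 75.3% for Ldhc in Plzf lu/lu, where plate 4 gave 1 UMI each of Gapdh and Gapdhs. Over the pooled UMIs these shares were 78.5% and 84.2%. As a mean over cells with at least 3 UMIs of the pair it was 97% for Gapdhs and 80.5% for Ldhc in Plzf +/+ and 72.7% for Ldhc in Plzf lu/lu. At resolution 1 the cluster named spermatid-like had 806 CPM of Pgk2 and 1026 of Gapdhs. The Plzf lu/lu library of 38 cells limits every comparison between genotypes.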
